A study of Mus musculus with 16 samples.

Results

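The 10 genes described here are 3 superoxide dismutases (Sod1, Sod2 and Sod3), catalase (Cat), the transcription factor NRF2 (Nfe2l2), its inhibitor Keap1 and 4 genes of the oxidative stress and heme response (Nqo1, Hmox1, Hmox2 and Srxn1). They were chosen by name and matched to the 25006 Ensembl gene identifiers of the count data, in which all 10 were found. The question was whether an NRF2 response accompanied loss of the mitochondrial calcium uniporter (MCU) in dopaminergic neurons. None of the 10 genes passed the test of a difference between genotypes across all genes, beside 0.178% of all genes tested. For Sod3, Nfe2l2, Nqo1 and Hmox1 the 95% confidence interval extended beyond a 2-fold change both ways. Of 27 other NRF2 targets tested, 1 passed, Slc7a11, which was higher in MCU-KO mice (log2 fold change 3.80, edgeR, Benjamini-Hochberg adjusted p = 7.67e-04). Keap1 had the smallest p of the 10, with 2072 ± 446 normalized counts (SD, n = 8) in controls and 2547 ± 489 (SD, n = 8) in MCU-KO mice, and its difference did not pass the threshold after correction.

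Superoxide is a by-product of mitochondrial respiration and other oxidases. Superoxide dismutases convert it to hydrogen peroxide, in the cytosol (SOD1), in the mitochondrial matrix (SOD2) or outside the cell (SOD3), and catalase breaks hydrogen peroxide down in peroxisomes. KEAP1 binds NRF2 and presents it to a ubiquitin ligase, so that NRF2 is degraded under resting conditions. When cysteines of KEAP1 are modified by oxidants or electrophiles, NRF2 accumulates, binds antioxidant response elements together with small MAF proteins and raises transcription of its target genes. Dopaminergic neurons of the substantia nigra pars compacta (SNc) carry a sustained load of cytosolic Ca2+ entry, respiration and dopamine oxidation, and they degenerate in Parkinson's disease.

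The measurements were RNA-seq counts per gene of mRNA bound to tagged ribosomes (RiboTag) in substantia nigra tissue, with 1 library for each of 8 control and 8 MCU-KO mice. Control mice were DAT-Cre +/- and MCU-KO mice were DAT-Cre+/- with MCU fl/fl, so that both groups carried Cre recombinase driven from the dopamine transporter locus and differed in the floxed alleles. All mice were at postnatal day 45, 30 days after stereotaxic injection of an AAV9 vector with a Cre-dependent tagged Rpl22l1 and tdTomato. Expression of the tag and deletion of the floxed alleles both depended on Cre. According to the methods, control animals came from a cross of DAT-Cre with C57/BL6 mice and MCU-KO animals from a cross with the floxed line, so that genotype and breeding cannot be told apart.

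Library totals ranged from 14129527 to 22016362 counts, and MCU-KO mouse 8 had the lowest. Of the 12390 genes tested with edgeR's quasi-likelihood test and Benjamini-Hochberg adjustment, 22 passed an adjusted p of 0.05, which is 0.178% of the genes tested, and 11 of them (0.0888%) were higher in MCU-KO. Mcu itself ranged from 120 to 828 normalized counts in controls (median 401) and from 5.82 to 410 in MCU-KO mice (median 246). The groups overlapped, with 3 MCU-KO mice below all controls, and the exact permutation test of 8 against 8 mice gave p = 0.0541. The fitted log2 fold change of Mcu was -1.19 with a standard error of 0.59. The count covers the whole gene, and the share of it that lies outside the deleted part was not analysed here. The paper reports that the knockout was verified by quantitative PCR of Mcu transcripts in RiboTag mRNA and by measurements of mitochondrial Ca2+. Markers of dopaminergic neurons summed to 11830 to 15182 CPM (counts scaled to the library size) in controls and 10210 to 17493 CPM in MCU-KO mice, and all 9 had a count in every mouse. Markers of other cells were present as well, at 2518 to 4938 CPM in controls and 3027 to 5850 CPM in MCU-KO mice for 7 oligodendrocyte genes, 461 to 893 and 536 to 1088 CPM for 8 astrocyte genes, 25 to 96.0 and 29.0 to 137 CPM for 6 microglial genes, 18.6 to 46.3 and 9.84 to 46.0 CPM for 6 vascular genes, and 147 to 284 and 112 to 378 CPM for 5 genes of other neurons. No marker of any of these lists was at 0 in every mouse. In these bulk samples fewer cells of a type and less RNA per cell cannot be told apart.

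The antioxidant response element bound by NRF2 and small MAF proteins has the core TGACNNNGC, which was searched on both strands in the 300 bases around annotated transcription starts (250 before and 50 from the start on; RefSeq, GRCm38.p6). Of the 10 genes, 8 had an entry, and 3 of these held the core, namely Sod1, Nfe2l2 and Srxn1. Over all 27025 genes with an entry, 14% held it, and among 31 other NRF2 targets 10 of 25 with an entry did. The windows of Sod2, Cat, Keap1, Nqo1 and Hmox2 did not hold these letters, which says nothing of other elements. The 250 bases upstream of Sod1 (chr16:90220512-90220761, plus strand) and of Nfe2l2 (chr2:75704664-75704913, minus strand), and 30 bases inside the start of Srxn1 (chr2:152105542-152105571, plus strand), are shown because they carry the core, in capitals, with its first base 56 bases before the start, 240 bases before it and 28 bases after it. In Sod1 and Srxn1 the core reads on the opposite strand (as TGACCACGC and TGACCTAGC), and in Nfe2l2 on the strand of the gene (as TGACTCCGC).
Sod1: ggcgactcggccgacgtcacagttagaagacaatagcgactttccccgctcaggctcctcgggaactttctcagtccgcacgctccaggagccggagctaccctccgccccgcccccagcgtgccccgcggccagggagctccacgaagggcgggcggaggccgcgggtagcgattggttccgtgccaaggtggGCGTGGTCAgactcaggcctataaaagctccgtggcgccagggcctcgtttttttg
Nfe2l2: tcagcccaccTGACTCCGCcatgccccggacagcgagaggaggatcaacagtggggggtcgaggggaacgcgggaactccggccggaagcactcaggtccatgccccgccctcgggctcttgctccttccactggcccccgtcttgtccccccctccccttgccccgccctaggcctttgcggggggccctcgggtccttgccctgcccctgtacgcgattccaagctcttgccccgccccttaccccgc
Srxn1: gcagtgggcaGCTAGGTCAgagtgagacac
A match of letters is a description of these windows and not evidence of binding. The 3 genes with a match had fitted log2 fold changes of -0.02, -0.75 and -0.20, with standard errors of 0.11, 1.21 and 0.14.

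All 10 genes are protein coding and lie on chromosomes 16 (Sod1 at 90220754-90226329 and Hmox2 at 4726361-4766742 of GRCm38), 17 (Sod2, 13006846-13040063), 5 (Sod3, 52363791-52371418), 2 (Cat, 103453849-103485160, Nfe2l2, 75675513-75704641, and Srxn1, 152105516-152111376), 9 (Keap1, 21229730-21239361) and 8 (Nqo1, 107388225-107403206, and Hmox1, 75093621-75100589). Sod3, Cat, Nfe2l2, Nqo1, Hmox1 and Srxn1 shared no stretch of 50 transcribed bases with another gene. Of the stretches of Hmox2, 41.9% also occur in Cdip1, which overlaps it on the opposite strand, or in Ppp4r2, and without knowledge of the strand setting used in counting its level is uncertain. The same holds to a smaller extent for Keap1 (7.78% shared with an antisense gene). For Sod1, 3.42% of the stretches occur in Gm8566, whose exons do not overlap it. For Sod2, 21.0% of the stretches occur in 1 or more of 415 other genes.

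Superoxide dismutases were compared first. Sod1, the copper and zinc enzyme of the cytosol, had a lowest, median and highest value of 5493, 6950 and 8269 normalized counts in the 8 controls and of 5537, 6570 and 8770 in the 8 MCU-KO mice. The groups overlapped over nearly their whole range, and Sod1 lay at the percentile 96.1 of the control levels of all genes tested. Its log2 fold change, MCU-KO over control, was -0.02 with a standard error of 0.11, and the 95% confidence interval of the fold was 0.844 to 1.15. Sod2, the manganese enzyme of the mitochondrial matrix, had values of 3974, 5120 and 6311 normalized counts in controls and of 3577, 4641 and 5355 in MCU-KO mice. Only 1 MCU-KO mouse was above the control median and 2 were below all controls. The log2 fold change was -0.18 with a standard error of 0.11 (fold 0.748 to 1.04), and the exact permutation test gave p = 0.129. Within a mouse, the log2 ratio of Sod1 to Sod2 was 0.45 ± 0.24 (SD, n = 8) in controls and 0.60 ± 0.35 (SD, n = 8) in MCU-KO mice, a difference of 0.15 that did not exceed the spread (exact permutation p = 0.321, adjusted over 3 ratios 0.795).

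Sod3, the secreted enzyme, was low, and in each mouse it was either at 0 or clearly counted. It was at 0 in 3 control mice and 3 MCU-KO mice. In the remaining mice its lowest values were 63.7 normalized counts in controls and 66.9 in MCU-KO mice. These lie far above the 3 counts that a count of 0 still allows by counting error. Its median was 69.2 normalized counts in controls and 69.3 in MCU-KO mice, with highest values of 262 and 127. What set the mice at 0 apart was not tested. The fitted log2 fold change was -0.62 with a standard error of 1.41, an interval that spans folds from 0.0857 to 4.94, and it was -0.07 without control mouse 6, which had the highest value. Neither an increase nor a decrease of several-fold was detectable for this gene.

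Catalase was intermediate in level. The lowest, median and highest values of Cat were 193, 676 and 851 normalized counts in controls and 349, 456 and 755 in MCU-KO mice. Of the controls, 4 mice were at 774 to 851 and the other 4 at 193 to 579, and 7 of the 8 MCU-KO mice lay below the control median, while none was below the lowest control. The log2 fold change was -0.20 with a standard error of 0.33 (fold 0.546 to 1.39), and the exact permutation test gave p = 0.911 for a difference of -0.04 in mean log2(normalized count + 1).

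Each mouse's value is drawn in the plot of normalized counts by gene. In it, Sod1, Sod2, Keap1, Hmox2 and Srxn1 form compact groups far above 0, and Sod3, Nfe2l2, Nqo1 and Hmox1 scatter down to 0.

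**Figure D1:**
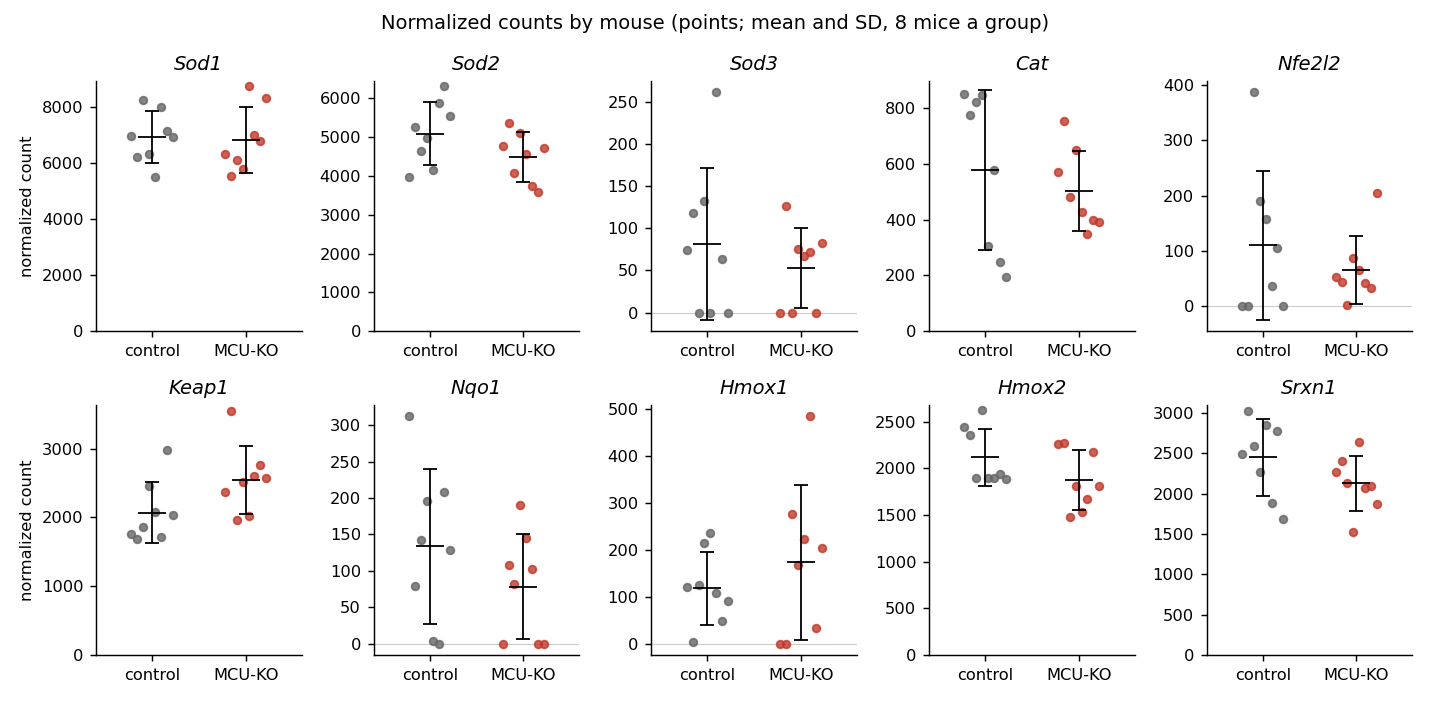
Normalized counts (counts divided by size factors, vertical axes, linear, a separate scale for each gene) of the 10 genes in 8 control mice (gray) and 8 MCU-KO mice (red). Points are mice, horizontal bars are means and vertical bars are SD. The groups overlap for all 10 genes, and all 8 MCU-KO mice lie above the control median of 1950 for Keap1.

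The regulators of the pathway differed in how well they could be measured. Keap1, the adaptor that targets NRF2 for degradation, had values of 1682, 1950 and 2980 normalized counts in controls (lowest, median and highest) and of 1970, 2545 and 3545 in MCU-KO mice. All 8 MCU-KO mice were above the control median, yet only 1 was above all controls, since 2 control mice (4 and 7) stood at 2454 and 2980. The log2 fold change was 0.30 with a standard error of 0.15 (fold 0.998 to 1.51), and the exact permutation test of the 8 against 8 mice gave an unadjusted p = 0.0480. With edgeR and Benjamini-Hochberg adjustment over all 12390 genes the adjusted p was 1.00. Of the 10 genes, 0 had an unadjusted edgeR p under 0.05, beside 4.41% of all genes tested by edgeR. By the exact test 1 had a p under 0.05, and the share over all genes was not computed for that test.

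Nfe2l2, which encodes NRF2, was low. The control values were 0, 0, 387, 191, 158, 36.8, 105 and 0 normalized counts for mice 1 to 8, and the MCU-KO values were 51.9, 42.9, 0.919, 86.8, 65.0, 40.8, 32.0 and 204. Controls therefore held both the 3 mice at 0 and the highest value, and 6 of the 8 MCU-KO mice lay below the control median of 70.8. The fitted log2 fold change was -0.75 with a standard error of 1.21 (fold 0.105 to 3.38), whereas the difference of mean log2(normalized count + 1) was 0.91, of the opposite sign (exact permutation p = 0.551). No direction can be given for Nfe2l2. The log2 ratio of Keap1 to Nfe2l2 within a mouse was 6.56 ± 3.66 (SD, n = 8) in controls and 5.95 ± 1.87 (SD, n = 8) in MCU-KO mice (exact permutation p = 0.665, adjusted over 3 ratios 0.795). NRF2 is controlled mainly through the stability of the protein, which was not measured.

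Of 15 further partners and regulators of NRF2 (small MAF proteins, the CUL3 ligase, BACH1, DJ-1 and others), 13 were tested. Of these, 0 passed the threshold, beside 0.178% of all genes tested. Their median log2 fold change was -0.01, beside 0.00 over all genes tested, and 5 were higher and 8 lower. Park7, which encodes DJ-1, a Parkinson's disease gene product that responds to oxidation, had the smallest p. It had 12507 ± 1712 normalized counts (SD, n = 8) in controls and 10911 ± 990 (SD, n = 8) in MCU-KO mice, a log2 fold change of -0.20 with a standard error of 0.09 (edgeR, Benjamini-Hochberg adjusted p = 1.00). Next by p were Gsk3b, a kinase that marks NRF2 for degradation (log2 fold change -0.20), and Rbx1, the RING subunit of the CUL3 ligase (0.10), neither of which passed.

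Nqo1, a quinone reductase and a widely used reporter of NRF2 activity, had values of 0, 136 and 313 normalized counts in controls (lowest, median and highest) and of 0, 92.1 and 190 in MCU-KO mice. It was at 0 in 1 control mouse and 3 MCU-KO mice, and no MCU-KO mouse was above the control range. The log2 fold change was -0.77 with a standard error of 1.22 (fold 0.102 to 3.39; exact permutation p = 0.319). Srxn1, sulfiredoxin, restores peroxiredoxins that have been inactivated by over-oxidation. Its values were 1691, 2549 and 3029 normalized counts in controls and 1521, 2118 and 2641 in MCU-KO mice, with 1 MCU-KO mouse above the control median and 1 below all controls. The log2 fold change was -0.20 with a standard error of 0.14, and the 95% confidence interval of the fold was 0.710 to 1.06 (exact permutation p = 0.171).

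Heme oxygenases split heme into biliverdin, carbon monoxide and iron, HMOX1 as the inducible and HMOX2 as the constitutive enzyme of neurons. Hmox1 values in controls were 121, 2.64, 124, 214, 235, 107, 48.3 and 90.2 normalized counts for mice 1 to 8, and in MCU-KO mice 0, 0, 277, 168, 222, 485, 33.0 and 203. The MCU-KO mice thus held the 2 mice at 0 and also the 2 highest values. The fitted log2 fold change was 0.56 with a standard error of 1.00 (fold 0.349 to 6.21), and the difference of mean log2(normalized count + 1) was -0.66, of the opposite sign (exact permutation p = 0.689), so that no direction can be given. In the same order of mice, the 6 microglial markers summed to 61.6, 83.5, 85.4, 96.0, 52.0, 25, 29.5 and 35.3 CPM in controls and to 62.4, 51.8, 66.1, 134, 77.1, 137, 29.0 and 81.2 CPM in MCU-KO mice. Their part in the level of Hmox1 was not tested.

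Hmox2 had values of 1885, 1918 and 2624 normalized counts in controls and of 1473, 1813 and 2267 in MCU-KO mice. Here 5 MCU-KO mice lay below all controls, while the other 3 lay among them. The log2 fold change was -0.17 with a standard error of 0.13 (fold 0.734 to 1.07; exact permutation p = 0.130). The log2 ratio of Hmox1 to Hmox2 within a mouse was -4.75 ± 1.97 (SD, n = 8) in controls and -5.23 ± 3.85 (SD, n = 8) in MCU-KO mice (exact permutation p = 0.795).

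Across the 10 genes, 0 passed the threshold, beside 0.178% of all genes tested, and 0 had groups that did not overlap, beside 0.258%. The fitted change was above 0 for 2 genes and below 0 for 8, with a median log2 fold change of -0.19. Over all genes tested the median was 0.00 and 49.6% were below 0. The signs counted include those of Nfe2l2 and Hmox1, for which no direction can be given. That of Sod1 changed when some single mice were left out. For 6 of the 10 genes (Sod1, Sod2, Cat, Keap1, Hmox2 and Srxn1) the 95% confidence interval lay within a 2-fold change in either direction, as it did for 51.8% of all genes tested. For the other 4 (Sod3, Nfe2l2, Nqo1 and Hmox1) it extended beyond a 2-fold change both ways.

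**Figure D2:**
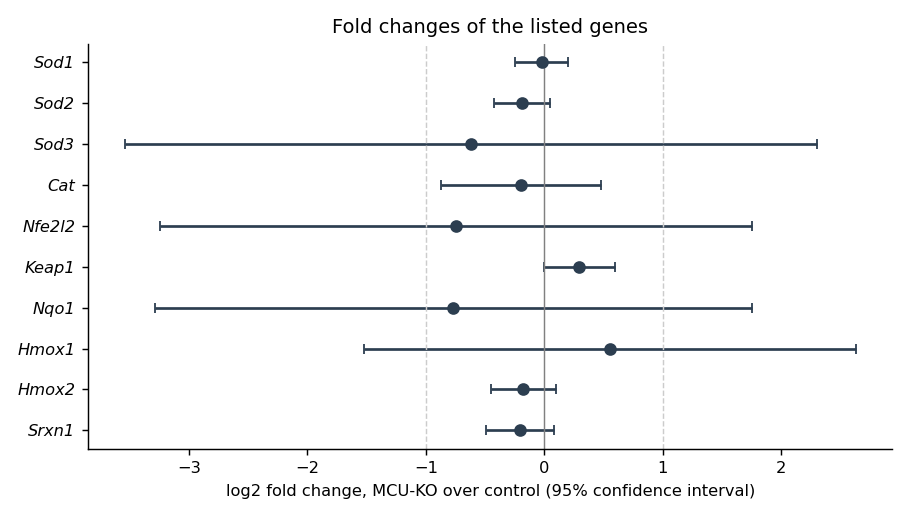
Fitted log2 fold changes (horizontal axis, MCU-KO over control, edgeR) of the 10 genes with 95% confidence intervals; dashed lines mark a 2-fold change. Every interval includes 0, that of Keap1 by the smallest margin (-0.00326 to 0.60), and those of Sod3, Nfe2l2, Nqo1 and Hmox1 pass both dashed lines.

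How far the 10 genes could be measured followed their level. The SD within a group was 15.3% of the mean for Sod1 and Sod2, 15.7% for Hmox2, 17.9% for Srxn1, 20.3% for Keap1 and 41.9% for Cat. It was 85.8% for Nqo1, 88.5% for Hmox1, 107% for Sod3 and 120% for Nfe2l2. The last 4 had means between 50 and 150 normalized counts, a range in which the median gene of 1986 had a spread of 96.6% and 79.8% of genes were at 0 in at least 1 mouse. The median gene in that range was at 0 in 2 mice, and Sod3, Nqo1, Nfe2l2 and Hmox1 were at 0 in 6, 4, 3 and 2 mice. A count of 0 still allowed up to 3 counts, or 0.136 to 0.212 CPM depending on the library, counting error only. That bound leaves out the spread between libraries. Among controls, Nfe2l2 ranged from 0 to 20.1 CPM and Sod3 from 0 to 13.7 CPM.

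**Figure D3:**
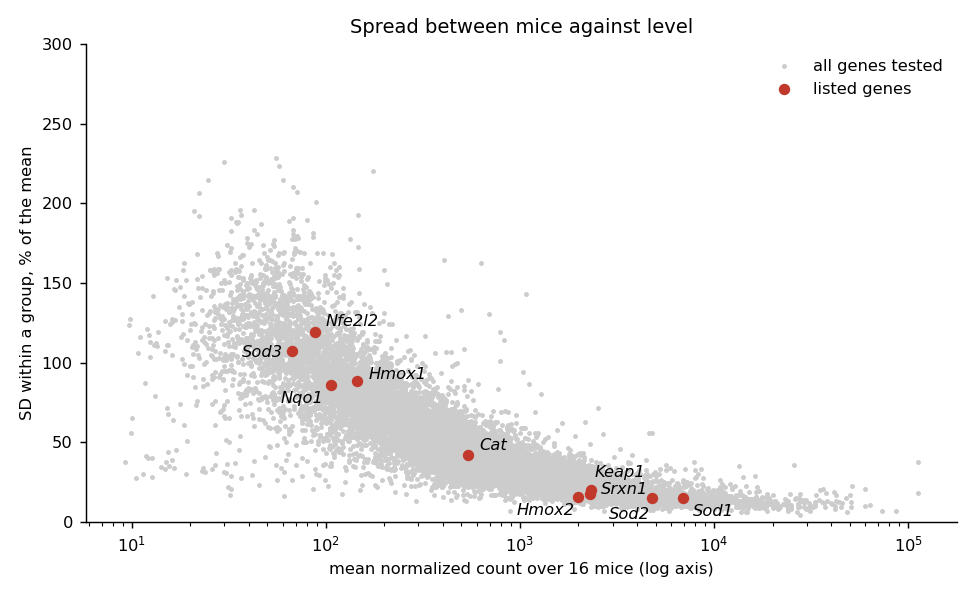
Spread between mice (vertical axis, SD within a group as a percentage of the mean) against mean normalized count over 16 mice (horizontal log axis) for all 12390 genes tested (gray) and the 10 genes (red). The red points lie within the gray cloud, with Sod1 and Sod2 at 15.3% and Nfe2l2 at 120%.

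Levels of the 10 genes were compared with each other per kilobase (kb) of exon. The tests of order set a ratio against the spread between mice. They do not cover sequence shared with other genes, so that the places of Hmox2 and, to a smaller extent, Sod2 and Keap1 are uncertain. In controls the order of mean normalized counts per kb was Sod1 (1744), Hmox2 (955), Srxn1 (869), Sod2 (509), Keap1 (441), Cat (221), Nqo1 (86.1), Hmox1 (67.3), Nfe2l2 (28.9) and Sod3 (21.8). Neighbors differed beyond the spread for Sod1 over Hmox2, Srxn1 over Sod2 and Keap1 over Cat, each in 8 of 8 mice (exact sign-flip permutation test, adjusted p = 0.0234 over 9 pairs, from the smallest p that 8 mice allow). The other 6 neighboring pairs did not pass this test, of which Hmox1 over Nfe2l2 passed without control mouse 3 (adjusted p = 0.0352 in the same exact test). In MCU-KO mice the order was Sod1 (1721), Hmox2 (846), Srxn1 (755), Keap1 (543), Sod2 (448), Cat (193), Hmox1 (99.0), Nqo1 (50.5), Nfe2l2 (17.3) and Sod3 (14.2), and the pairs that differed were Sod1 over Hmox2, Srxn1 over Keap1 and Sod2 over Cat, again in 8 of 8 mice (same test, adjusted p = 0.0234). Keap1 over Sod2 passed without MCU-KO mouse 5 and Cat over Hmox1 without MCU-KO mouse 6 (same exact test, adjusted p = 0.0352 each).

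Exon length set part of this order. The exons of Sod1 span 3970 bases when all transcripts are joined and 641 bases in the principal transcript, with which the control level of Sod1 would be 10801 normalized counts per kb. With principal transcripts in place of joined exons, Srxn1 and Sod2 were level in controls (871 and 869 per kb), and Sod2 ranked above Srxn1 and Keap1 in MCU-KO mice, so that the calls of Srxn1 over Sod2 in controls and Srxn1 over Keap1 in MCU-KO mice were lost. With the same lengths Hmox2 over Srxn1 passed in both groups, with log2 ratios of 0.50 in controls and 0.52 in MCU-KO mice (exact sign-flip permutation test, adjusted p = 0.0176 and 0.0469). Sod2 over Keap1 passed in controls, with a log2 ratio of 0.61 (same exact test, adjusted p = 0.0176).

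**Figure D4:**
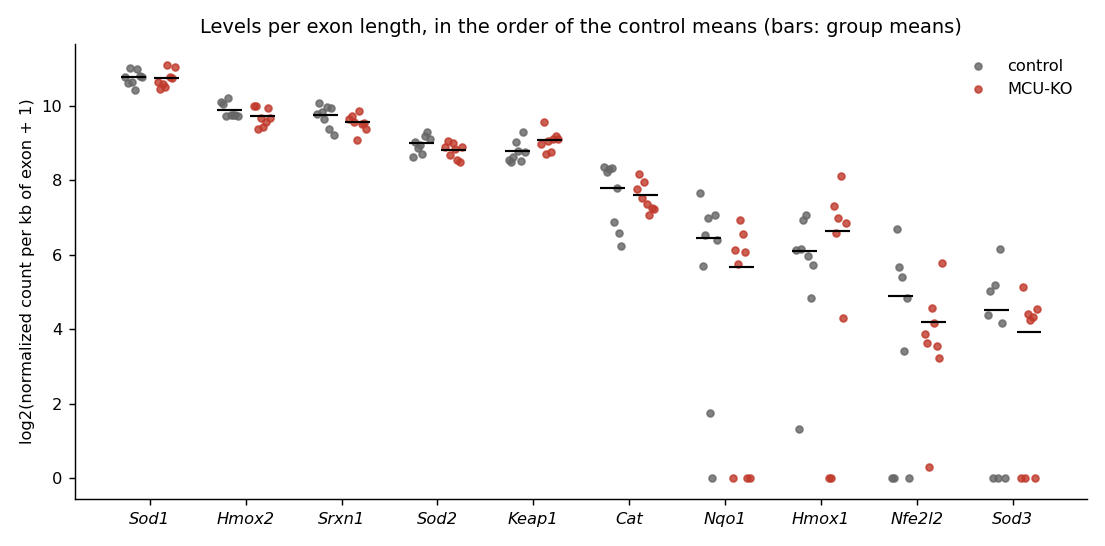
Levels per exon length as log2(normalized count per kb + 1) (vertical axis) of the 10 genes, ordered by the control mean, in 8 control (gray) and 8 MCU-KO mice (red); points are mice and black bars the log2 of the group mean + 1. Sod1 is highest at a mean of 1744 per kb in controls, and the 4 lowest genes have mice at 0 or close to it.

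The other target genes of NRF2 give the context for the 10. Of 31 such genes (glutathione synthesis, thioredoxin, NADPH supply, iron storage, transport and detoxication), 27 were tested, 1 was higher in MCU-KO and 0 were lower at the threshold, beside 0.178% of all genes. The median log2 fold change was 0.02, and 14 were higher and 13 lower. The gene that rose was Slc7a11, the cystine and glutamate exchanger that supplies cysteine for glutathione, from a lowest, median and highest value of 2.77, 58.4 and 116 normalized counts in controls to 523, 763 and 962 in MCU-KO mice. The groups did not overlap, and the log2 fold change was 3.80 with a standard error of 0.55 (edgeR, Benjamini-Hochberg adjusted p = 7.67e-04). The window around the annotated start of Slc7a11 did not hold the core TGACNNNGC, while that of Gclm did. This search of exact letters says nothing of other elements or of sequence outside the window. Whether NRF2 took part in the rise of Slc7a11 was not tested. Gclm, the modifier subunit of glutamate-cysteine ligase, had 1788 ± 259 normalized counts (SD, n = 8) in controls and 2712 ± 623 (SD, n = 8) in MCU-KO mice, a log2 fold change of 0.60 with a standard error of 0.15. It did not pass with edgeR (adjusted p = 0.187, Benjamini-Hochberg) and passed with DESeq2 (adjusted p = 0.0473) and with edgeR without MCU-KO mouse 2 (adjusted p = 0.0441). Tkt, transketolase of the pentose phosphate pathway, came next by p, with a log2 fold change of -0.20 that did not pass.

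**Figure D5:**
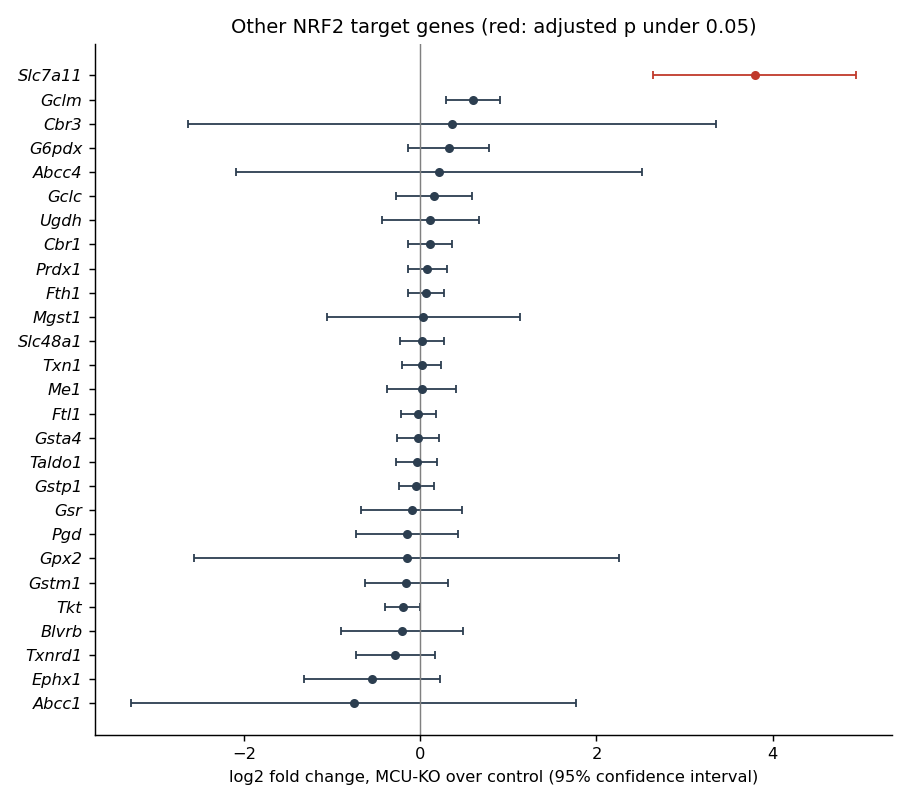
Fitted log2 fold changes (horizontal axis, MCU-KO over control, edgeR) of the 27 tested other NRF2 target genes with 95% confidence intervals, sorted by size; red marks an adjusted p under 0.05. Slc7a11, at 3.80, is the only red point, Gclm is next at 0.60, and the remaining genes lie on both sides of 0.

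Among genes that supply or use the same chemistry, none passed the threshold, beside 0.178% of all genes tested. Of 11 genes of heme synthesis and breakdown, 11 were tested and 0 passed, with a median log2 fold change of -0.13. The smallest p values belonged to Alas1, the first enzyme of heme synthesis (0.34), Cpox (0.29) and Alad (-0.30). Of 12 genes that bring copper, zinc or manganese to the dismutases, 10 were tested and 0 passed (median 0.11), with Atox1, a copper chaperone, at -0.18, the metal transporter Slc11a2 at -0.70 and the copper transporter Slc31a1 at 0.34. Of 8 regulators of Sod2 and Cat, 7 were tested and 0 passed (median -0.13), with Sirt3, the mitochondrial deacetylase that acts on SOD2, at -0.16, and the coactivators Ppargc1a and Ppargc1b at -0.21 and -0.58. Of 12 peroxisomal genes, 10 were tested and 0 passed (median 0.11), with the peroxins Pex10 at -0.50 and Pex2 at 0.39.

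Among the 10610 genes with at least 100 normalized counts on average, those most like each of the listed genes were found by Pearson's r of log2 CPM over the 16 mice with group means subtracted. All values come from the same libraries and share their depth and composition. The named genes were also picked as the highest among 10610 genes over only 16 mice. How high such an r would be by chance was not tested, so the values are given as a description. The closest gene was D8Ertd738e for Sod1 (0.873), Aimp2 for Sod2 (0.884), Rbm3 for Cat (0.815), Ttc5 for Keap1 (0.853), Nup155 for Nqo1 (0.83), Tnfrsf1a for Hmox1 (0.919), Necap1 for Hmox2 (0.81) and Fbxw9 for Srxn1 (0.829). Next were Snhg10 and Usmg5 for Sod1, Atn1 and Polr3g for Sod2, Ptprt and Serpina3n for Cat, Car11 and Gnl1 for Keap1, Nap1l3 and Csnk2a1 for Nqo1, Spaca6 and Lsm7 for Hmox1, Rnf8 and Alg9 for Hmox2, and Dtymk and Asic2 for Srxn1, with r between 0.789 and 0.865. None of the 10 genes was among the closest of another. Sod3 and Nfe2l2 were below the level set for this comparison.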

How the data were processed

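RNA-seq libraries of 8 control and 8 MCU-KO mice were grouped by their labels. The paper gives a larger number of MCU-KO mice for its RNA-seq than the 8 with labels used here. The authors trimmed, aligned (STAR, mm10) and counted the reads per gene (HTSeq, Ensembl annotation), and deposited whole-number counts without normalization. The methods name cutadapt and the submitters' processing notes Trim Galore for trimming. Versions, annotation release and strand setting are not given in the sources used here. The files hold 1 value per gene and mouse, so reads of repeats and overlapping genes cannot be separated.

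Symbols, coordinates and exon lengths came from GENCODE M21 (GRCm38, which mm10 names), and 24942 identifiers had a symbol. Genotypes were compared with edgeR 4.0.16 in R 4.3.3 (filterByExpr, TMM, quasi-likelihood test) and p-values were adjusted by Benjamini-Hochberg for the 12390 genes tested, with calls at 0.05. Standard errors were derived from the coefficient and the F statistic. Normalized counts are counts divided by size factors of DESeq2 1.42.0. Exact two-sided permutation tests used log2(normalized count + 1) and all 12870 assignments of 8 against 8 mice, and the order of levels used 256 sign patterns within a group. p-values set a difference or ratio against the spread between these mice. Alternatives were DESeq2, limma 3.58.1 (voom), other normalizations and filters, the mouse number as a block, glial and vascular markers or Xist as covariates, and omission of each mouse. The principal-transcript length was chosen after seeing the data. Named outside the 10 genes were Mcu, the called genes of each list or up to 3 of smallest p, and the 3 most similar genes of each. Of these, 1 gene is not reported here. The genes, lists and tests were chosen with earlier results of these data known. The scripts were tested on simulated data. Python 3.11.15, numpy 2.4.6, pandas 2.3.3, scipy 1.17.1 and matplotlib 3.10.9 were used. Promoter sequences of Sod3 and Hmox1 and protein sequences were not used here.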

Additional observations from a re-analysis of the deposited data

Results flagged for a closer look

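Of 42 groups of 8 mice examined (the 10 genes, Mcu, the 6 marker sums, the library totals and the 3 ratios, in each genotype), 5 had a mouse that stood apart from the rest by Dixon's test at the 95% level, where chance flags about 1 in 20 groups. Nfe2l2 in MCU-KO mouse 8 was at 204 normalized counts, above the next of its group at 86.8. The log2 ratio of Keap1 to Nfe2l2 in MCU-KO mouse 3 was 10.005, since Nfe2l2 was at 0.919 normalized counts there. The log2 ratio of Hmox1 to Hmox2 in control mouse 2 was -9.34, with Hmox1 at 2.64 normalized counts. MCU-KO mouse 8 also had the lowest library total, 14129527 counts. The markers of other neurons summed to 284 CPM in control mouse 3.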

How the results depend on the processing

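None of the 10 genes was called under any alternative, and the smallest adjusted p of any of them was 0.38. Of 266 fold changes of the 10 genes under alternatives, 255 kept their sign and 11 changed it. Nfe2l2 was at 1.18 with limma-voom, 1.22 with limma-voom and sample weights and 0.60 with the mouse number as a replicate block, and Hmox1 at -0.89, -0.26 and -0.28. When 1 mouse was left out, Sod1 ranged from -0.075 to 0.023, Sod3 from -0.94 (without MCU-KO mouse 2) to -0.07 (without control mouse 6), Cat from -0.33 to -0.09, Nfe2l2 from -1.25 to -0.09, Nqo1 from -1.10 to -0.46 and Hmox1 from 0.13 to 0.78. Cat was at -0.000517 with sample weights. With at least 10 counts required in every mouse, Sod3, Nfe2l2, Nqo1, Hmox1 and Slc7a11 were not tested.

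Of all genes, 50 were called with DESeq2, 14 with the replicate block and 18 to 24 without 1 mouse, against 22. Same-numbered mice did not deviate together (correlations from -0.06 to 0.03, 0 of 8 closest to its own number), and the block changed no call of the 10 genes. Of the other NRF2 targets, 2 were called with DESeq2 and 0 with at least 10 counts in every mouse, and 1 to 2 without 1 mouse (2 without MCU-KO mouse 2). Ppargc1a was at 0.022 with sample weights.

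The difference of the Keap1 to Nfe2l2 ratio was -0.61 and became 0.00729 with a pseudocount of 5 and 0.36 on TMM-scaled CPM, with -1.22 to 0.027 without 1 mouse. That of Hmox1 to Hmox2 was -0.48 and became 0.21 on that CPM, with -1.14 to 0.37 without 1 mouse. Of the level ratios, Srxn1 to Sod2 in controls was -0.0051 with longest or principal transcripts, and in MCU-KO mice Keap1 to Sod2 was -0.13 and Nqo1 to Nfe2l2 -0.34 (-0.0403 with a pseudocount of 0.5). Without 1 mouse, Nfe2l2 to Sod3 in controls was -1.08 to 1.14, Nqo1 to Hmox1 in controls -1.03 to 0.58 and Nqo1 to Nfe2l2 in MCU-KO mice -0.65 to 1.22. The cause was not tested. At the low levels of Sod3, Nfe2l2, Nqo1 and Hmox1, even changes of several-fold could have been missed.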
